A study of Mus musculus with 10 samples.

Results

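The genes described here copy DNA in S phase: the MCM helicase, the factors that load and start it, the replicative polymerases and primase, the sliding clamp and its loader, the single-strand binding and Okazaki fragment enzymes, the enzymes that make deoxynucleotides, the chromatin assembly factors, and the regulators of S-phase entry. They were chosen by name as a list of 45 genes in 8 sub-complexes, and each was read from its brightest detected probe, a probe counting as detected when its p for signal over background was below 0.05 on 2 or more arrays. Of the 45, 42 were measured, among 16144 genes tested. Pcna, the sliding clamp, Slbp, the histone mRNA binding protein, and Ccne1, cyclin E1, had 1 probe each and were detected on no array.

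RNA came from lung endothelial cells isolated by flow sorting from C57/Bl6 mice at postnatal day 6, on 10 Illumina beadchip arrays in 4 groups. Rspo3-iECKO mice (3 arrays) carried Rspo3 fl/fl with the Cdh5CreERT2 transgene, and Rspo3-WT mice (2 arrays) carried Rspo3 fl/fl without it. Evi-iECKO mice (2 arrays) carried Evi fl/fl with Cdh5CreERT2, and Evi-WT mice (3 arrays) carried Evi fl/fl without it; the gene that is called Evi in the labels is Wls in the array annotation. The groups called WT therefore carry floxed alleles and lack only Cre, whose expression the Cdh5 promoter drives in endothelium. The sources used here do not give the time of induction, the antibodies of the sort, or the number of animals behind an array. The p-values therefore cover only the spread between these samples, which may be technical. Rspo3 encodes a secreted Wnt enhancer and Wls the carrier that brings Wnt ligands to the cell surface, and the study set out to find endothelial genes co-regulated by the 2 deletions.

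DNA replication starts when the MCM helicase, loaded on origins in G1, is activated and unwinds the template, after which primase, polymerases alpha, delta and epsilon, the sliding clamp and its loader build both new strands. Many genes of this machinery are targets of E2F transcription factors, which are held back by RB proteins until cyclin-dependent kinases release them at the end of G1. Endothelial cells of the neonatal lung divide while the capillary bed expands, so S-phase transcripts are a usual component of their RNA.

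Promoter windows are shown for 3 MCM helicase genes that carry E2F letters and for the 2 genes, Chaf1b and Pold4, with the smallest p in the mean of both deletions. Each window of 300 bases is the RefSeq sequence of build GRCm38.p6, reads 5′ to 3′ along the gene's strand, and runs from 250 bases before a RefSeq start to 50 after it. Capitals mark the E2F letters searched (TTTCCCGC, TTTCGCGC, TTTGCCGC and TTTGGCGC) and the letters CCAAT, each on either strand; the 2 kinds of motif may overlap one another.
Mcm3 (chr1:20820263-20820562, minus strand): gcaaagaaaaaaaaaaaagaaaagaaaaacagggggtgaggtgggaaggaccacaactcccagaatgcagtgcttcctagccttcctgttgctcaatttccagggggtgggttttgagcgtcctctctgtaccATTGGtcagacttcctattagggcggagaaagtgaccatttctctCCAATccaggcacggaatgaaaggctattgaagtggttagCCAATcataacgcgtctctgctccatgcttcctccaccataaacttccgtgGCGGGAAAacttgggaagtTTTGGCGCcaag
Mcm5 (chr8:75109259-75109558, plus strand): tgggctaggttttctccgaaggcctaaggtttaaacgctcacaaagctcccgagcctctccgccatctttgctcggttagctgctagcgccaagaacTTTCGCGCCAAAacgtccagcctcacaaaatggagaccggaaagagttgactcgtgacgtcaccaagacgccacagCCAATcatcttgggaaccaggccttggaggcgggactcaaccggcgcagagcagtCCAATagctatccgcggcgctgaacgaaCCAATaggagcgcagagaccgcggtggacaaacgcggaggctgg
Mcm6 (chr1:128359656-128359955, minus strand): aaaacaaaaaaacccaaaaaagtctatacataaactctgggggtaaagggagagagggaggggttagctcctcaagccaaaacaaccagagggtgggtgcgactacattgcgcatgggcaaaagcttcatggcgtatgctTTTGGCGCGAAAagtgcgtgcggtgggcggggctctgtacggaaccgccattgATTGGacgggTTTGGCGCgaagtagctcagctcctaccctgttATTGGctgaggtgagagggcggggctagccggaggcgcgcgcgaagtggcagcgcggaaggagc
Chaf1b (chr16:93883651-93883950, plus strand): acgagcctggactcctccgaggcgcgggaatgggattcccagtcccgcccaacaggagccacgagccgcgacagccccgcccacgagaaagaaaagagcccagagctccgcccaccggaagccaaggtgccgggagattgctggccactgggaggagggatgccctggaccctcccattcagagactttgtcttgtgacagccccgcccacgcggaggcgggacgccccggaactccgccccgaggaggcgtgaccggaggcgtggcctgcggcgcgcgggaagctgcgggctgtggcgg
Pold4 (chr19:4231643-4231942, plus strand): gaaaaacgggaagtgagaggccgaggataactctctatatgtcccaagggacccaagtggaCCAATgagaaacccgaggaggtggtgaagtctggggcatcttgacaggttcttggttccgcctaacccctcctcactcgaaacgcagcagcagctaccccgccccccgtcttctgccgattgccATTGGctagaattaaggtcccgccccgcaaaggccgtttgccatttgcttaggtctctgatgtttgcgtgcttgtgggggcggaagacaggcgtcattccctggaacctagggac

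In the Mcm3 window the E2F letters start at positions 270 and 289 of the window. The Mcm5 window has a pair on opposite strands that overlap, at positions 98 and 102, and Mcm6 has such a pair at 141 and 145 and a further match at 204. Neither the Chaf1b nor the Pold4 window holds these letters, and Pold4 has CCAAT letters at 62 and 186. Over the list, 38 of the 45 genes had a window, and 13 of these (34.2%) held E2F letters, against 704 of the 27025 genes in the RefSeq table (2.6%). CCAAT letters were in 21 of the 38 (55.3%), against 41.1% of all genes. By sub-complex, E2F letters were in 4 of 5 MCM genes, 2 of 3 licensing genes and 4 of 8 polymerase genes, and in 0 of 5 nucleotide supply genes and 0 of 3 genes of G1/S control. A match of letters is a description of the window and no evidence of binding.

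The label checks came first. Wls had a normalized log2 intensity of 5.68, 6.21 and 5.69 on the Evi-WT arrays and of 4.85 and 4.68 on the Evi-iECKO arrays, a difference of -1.10 (SE 0.27, limma adjusted p = 0.357). The Evi-iECKO arrays were both below every Evi-WT array for Wls. Both Rspo3 probes were detected on no array of the Rspo3 line, so the arrays do not check that deletion. Cdh5, the endothelial cadherin, lay between 8.81 and 9.74 on all 10 arrays, and the mean of 10 endothelial markers lay between 8.72 and 9.12. Between 49.8% and 51.3% of probes were detected per array in the Rspo3 line, and between 46.5% and 48.6% in the Evi line. The Evi-iECKO arrays correlated least of any group (Pearson's r = 0.931 across genes, which are not independent). In bulk RNA, fewer cells in S phase and less S-phase RNA per cell cannot be told apart.

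No gene of the list passed an adjusted p of 0.05 in limma for either deletion, for their mean or for their difference; the smallest adjusted p over the list was 1 for Rspo3 deletion, 0.469 for Evi/Wls deletion, 0.503 for the mean and 0.733 for the difference. Over all 16144 genes the share past that threshold was 0% in each of these comparisons. Without Evi-iECKO 1, 24 genes passed for Evi/Wls deletion, 4 for the mean and 6 for the difference, and without Evi-iECKO 2, 2 and 6 genes passed for Evi/Wls deletion and the mean. The counts that follow use an unadjusted limma p below 0.05 and are a description beside the same share of all genes. With a median SE of 0.25 on the log2 scale within a line and 0.18 for the mean of both lines, small differences were not detectable on 10 arrays. Chek1 and Pole2 were detected on deleted arrays only, 4 each, and so entered the list through the arrays where they were high; their counts and signs support nothing. Counts over the 40 genes detected on at least 1 control and 1 deleted array, an alternative chosen after seeing the data, are therefore given beside those over the 42.

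In Rspo3-iECKO against Rspo3-WT, Chaf1b, Chek1 and Prim2 were at higher and Pold4 and Dut at lower levels, the only 5 of 42 genes (11.9%) at that unadjusted p, against 4.35% of all genes (2.35% higher and 2.01% lower). The median log2 difference of the 42 genes was 0.04, and 22 of 42 were above 0, against 48.5% of all genes. The groups did not overlap for 8 genes that were higher (19%, against 10.8% of all genes) and for 3 that were lower (7.14%, against 11.9%). The 8, with the gap between their nearest arrays, were Mcm4 (0.01), Mcm6 (0.02), Mcm7 (0.05), Prim2 (0.27), Pole2 (0.01), Rfc5 (0.09), Chaf1b (0.16) and Chek1 (0.56). The 3 were Cdt1 (0.03), Pold4 (0.02) and Dut (0.02). Over the 40 genes, refitted without Chek1 and Pole2 and other genes of that kind, 2 were higher and 2 lower (10%, against 4.01% of the 15301 genes so filtered), the groups were apart for 6 that were higher (15%, against 10.4%), and the median was 0.01. The count of 5 dropped to 0 without Rspo3-WT 1, without Rspo3-iECKO 2 or without Rspo3-iECKO 3, and to 3 without Evi-WT 1 or Evi-WT 2, and the median became 0.21 without Rspo3-WT 1 and -0.03 without Rspo3-WT 2. With arrays scaled to 1 median in place of quantile normalization, 6 genes were higher and 0 lower at the unadjusted p and the median was 0.25, beside a median of 0.11 over all genes.

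In Evi-iECKO against Evi-WT, Ccne2, Chaf1b, Pole, Chek1 and Uhrf1 were higher and Pold4 lower, 6 of 42 genes (14.3%) against 7.99% of all genes (4.47% higher and 3.52% lower). The median log2 difference was 0.19, and 32 of 42 genes were above 0, against 51.4% of all genes. Groups did not overlap for 4 genes that were higher (Fen1, Chaf1b, Uhrf1 and Ccne2; 9.52%, against 10.8% of all genes) and for 2 that were lower (Pold4 and Dut; 4.76%, against 9.2%). Thus the list leaned upward in sign, while complete separation of the arrays was no more frequent than among all genes. The median was 0.04 without Evi-iECKO 1, 0.09 without Evi-WT 3 and 0.37 without Evi-WT 1, and the count was 11 both without Evi-WT 1 and without Evi-iECKO 2. With median scaling 2 were higher and 0 lower. Over the 40 genes, 4 were higher and 1 lower (12.5%, against 7.97%), with 30 above 0.

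In the mean of the within-line differences, 33 of 42 genes were above 0, against 49.8% of all genes, with a median of 0.13. Chaf1b and Chek1 were higher and Pold4 and Dut lower at the unadjusted p, 4 of 42 (9.52%) against 5.82% of all genes (3.21% higher and 2.6% lower). The median was 0.08 without Evi-WT 3, and the count was 7 without Evi-WT 1, without Evi-iECKO 2 or with median scaling, which gave 6 higher and 1 lower. Over the 40 genes it was 2, Chaf1b and Pold4 (5%, against 5.49%), with 31 above 0. Between the lines, 18 genes were above 0 in both (42.9%, against 24.9% of all genes), and 6 were below 0 in both (14.3%, against 24.9%). With Rspo3 deletion below 0 and Evi/Wls deletion above 0 there were 14, and 4 were the reverse. The 18 include Chek1 and Pole2, whose signs support nothing because they passed the filter only through deleted arrays. These counts of shared signs were not made over the 40 genes. The arrays separated in both lines for Chaf1b on the higher side (2.38%, against 1.4% of all genes) and for Pold4 and Dut on the lower side (4.76%, against 1.08%).

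**Figure D1:**
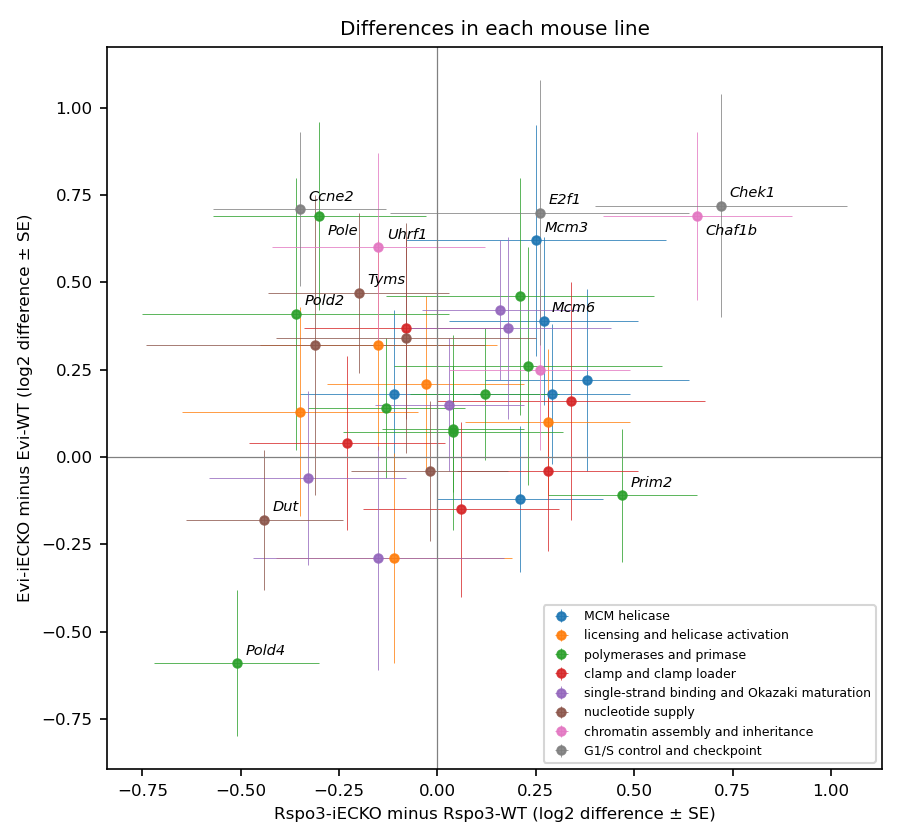
Log2 difference of each of the 42 genes with Rspo3 deletion (x axis) and with Evi/Wls deletion (y axis), with SE bars from limma and colours by sub-complex. Chaf1b and Chek1 lie at the upper right at 0.66 and 0.72 on the x axis, Pold4 lies at the lower left, and Ccne2 and Pole lie at the upper left.

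The MCM2-7 ring is the motor of the replicative helicase. All 6 subunits had a mean difference above 0 over both lines, between 0.04 for Mcm5 and 0.43 for Mcm3, with a median of 0.27, when each was read from its brightest probe. Other probes did not all share that sign: both other Mcm4 probes, detected on all 10 arrays, had mean differences of -0.34 (SE 0.15) and -0.31 (SE 0.21), and 1 of the 3 other Mcm6 probes had -0.14 (SE 0.21). The brightest probes were also above 0 in the mean with each of the other 3 scalings tried, with medians between 0.17 and 0.37. The subunit medians were 0.26 for Rspo3 deletion and 0.20 for Evi/Wls deletion, and 0.55 and 0.15 with median scaling, where the median of the difference between deletions went from 0.00 to -0.37. In the main fit, none of the 6 brightest probes reached the unadjusted p in either line or in the mean. With median scaling, Mcm2, Mcm4 and Mcm6 did for Rspo3 deletion, and Mcm2, Mcm3 and Mcm6 did in the mean. Over all 21 alternatives, Mcm6 reached it in the mean in 2. Mcm6, a ring subunit, had the smallest p of the sub-complex in the mean (0.33, SE 0.17, adjusted p = 0.88).

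Mcm6 was at 7.75 and 7.51 on the Rspo3-WT arrays and at 7.77, 7.99 and 7.94 on the Rspo3-iECKO arrays, and at 8.09, 8.23 and 7.36 on the Evi-WT arrays and 8.37 and 8.19 on the Evi-iECKO arrays. The Rspo3 groups did not overlap, by a margin of 0.02, whereas 1 Evi-WT array lay above the lower Evi-iECKO array. Mcm3, another ring subunit, was at 6.10 and 6.04 in Rspo3-WT, 6.26, 6.74 and 5.97 in Rspo3-iECKO, 5.62, 5.13 and 5.57 in Evi-WT, and 5.42 and 6.69 in Evi-iECKO. The 2 Evi-iECKO arrays were thus the second lowest and the second highest of the 10 for Mcm3, and its difference of 0.62 in the Evi line had an SE of 0.33. Mcm2 was at 6.75 and 6.53 in Rspo3-WT, 6.67, 7.05 and 7.06 in Rspo3-iECKO, 6.52, 6.42 and 6.09 in Evi-WT, and 6.50 and 6.55 in Evi-iECKO. Every Evi array of Mcm2 except 1 was below every Rspo3 array, and the deleted and control arrays overlapped within each line. Mcm4, Mcm5 and Mcm7 had differences of 0.38, -0.11 and 0.21 in the Rspo3 line and 0.22, 0.18 and -0.12 in the Evi line.

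Licensing and helicase activation had 5 genes: Cdc6 and Cdt1, which load MCM rings on origins, Mcm10, which helps to activate the helicase, and Gins1 and Gins2 of the GINS complex that joins it. Their median difference was -0.11 in the Rspo3 line (0.01 with median scaling) and 0.13 in the Evi line, and none reached the unadjusted p. Cdc6 had the smallest p in the mean (0.19, SE 0.15, adjusted p = 0.925). It was at 4.89 and 4.50 in Rspo3-WT, 4.85, 5.05 and 5.03 in Rspo3-iECKO, 4.89, 5.04 and 5.02 in Evi-WT, and 4.76 and 5.39 in Evi-iECKO. The Evi-iECKO arrays of Cdc6 enclosed all 3 Evi-WT arrays. Cdt1 was at 5.64 and 6.07 in Rspo3-WT and 5.38, 5.53 and 5.61 in Rspo3-iECKO, which did not overlap, a difference of -0.35 (SE 0.30). In the Evi line, Cdt1 was highest and lowest of all 10 arrays in the 2 Evi-iECKO samples, at 6.28 and 5.21.

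The polymerases and primase had 10 genes. Read from the brightest probes, Pold4, the small accessory subunit of polymerase delta, was the only one with an unadjusted p below 0.05 in the mean. Pold4 was at 5.66 and 5.45 in Rspo3-WT, 5.43, 4.98 and 4.72 in Rspo3-iECKO, 4.99, 5.03 and 5.16 in Evi-WT, and 4.36 and 4.58 in Evi-iECKO. Each deleted array was below every control array of its line, in the Rspo3 line by a margin of 0.02 at the nearest arrays. The difference was -0.51 (SE 0.21, adjusted p = 1) with Rspo3 deletion, -0.59 (SE 0.21, adjusted p = 0.517) with Evi/Wls deletion, and -0.55 (SE 0.15, adjusted p = 0.564) in the mean, which is 1.46-fold lower. The Pold4 probe was detected on 9 arrays, on 1 of the 2 in Evi-iECKO. The other Pold4 probe past the filter gave -0.46 (SE 0.19) with Rspo3 deletion and 0.08 (SE 0.19) with Evi/Wls deletion, so the 2 probes of this gene differed in sign in the Evi line.

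The other subunits of polymerase delta did not share the sign of Pold4 in the mean. Pold1, the catalytic subunit, had a mean difference of 0.05, Pold2 0.02 and Pold3 0.24, with SEs of 0.20, 0.28 and 0.24. Pole, the catalytic subunit of polymerase epsilon, was at 4.63 and 4.89 in Rspo3-WT, 4.21, 4.36 and 4.82 in Rspo3-iECKO, 4.46, 5.06 and 4.09 in Evi-WT, and 5.41 and 5.05 in Evi-iECKO. The Evi groups of Pole overlapped only through the Evi-WT array at 5.06, and the difference was 0.69 (SE 0.27, adjusted p = 0.563) in the Evi line and -0.30 (SE 0.27, adjusted p = 1) in the Rspo3 line.

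Prim2, the large primase subunit, was at 4.65 and 4.91 in Rspo3-WT, 5.18, 5.24 and 5.34 in Rspo3-iECKO, 5.18, 4.88 and 5.33 in Evi-WT, and 5.12 and 4.92 in Evi-iECKO. All Rspo3-iECKO arrays were above both Rspo3-WT arrays, while the Evi groups overlapped. The difference was 0.47 (SE 0.19, adjusted p = 1) in the Rspo3 line and -0.11 (SE 0.19, adjusted p = 0.932) in the Evi line. Another Prim2 probe gave 0.12 (SE 0.35) in the Rspo3 line. Pola1, the catalytic subunit of polymerase alpha, and Prim1, the small primase subunit, were detected on 2 arrays each and lie just inside the filter, with smallest detection p of 0.0043 and 0.00903. Just outside it, the smallest detection p was 0.606 for Pcna, 0.145 for Slbp and 0.992 for Ccne1. Pole2, the second subunit of polymerase epsilon, was not well above background on any control array of either line. It was detected on all 3 Rspo3-iECKO arrays, with a bound of at least 1.07-fold higher, and on 1 Evi-iECKO array. The 1.08-fold value for Evi-iECKO averages in the array without detection and is no bound. The other Pole2 probe past the filter, detected on 3 arrays, had the opposite sign, at -0.20 (SE 0.18) with Rspo3 deletion, -0.45 (SE 0.18) with Evi/Wls deletion and -0.33 (SE 0.13) in the mean, so no direction is given for Pole2.

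The clamp loader RFC opens the clamp and sets it around DNA. Its 5 measured subunits had median differences of 0.06 for Rspo3 deletion (0.36 with median scaling) and 0.04 for Evi/Wls deletion, and none reached the unadjusted p. Rfc3, a small subunit, had the smallest p in the mean (0.25, SE 0.24, adjusted p = 0.938). Rfc3 was at 5.06 and 4.30 in Rspo3-WT, 5.58, 4.75 and 4.72 in Rspo3-iECKO, 5.46, 4.91 and 4.48 in Evi-WT, and 4.90 and 5.32 in Evi-iECKO. Deleted and control arrays of Rfc3 overlapped in both lines. For Rfc5, another small subunit, the 3 Rspo3-iECKO arrays (5.15, 5.01 and 5.25) were above both Rspo3-WT arrays (4.80 and 4.92), and the Evi groups overlapped.

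Single-strand binding and Okazaki fragment maturation had 5 genes: Rpa1, Rpa2 and Rpa3 of the RPA trimer, which coats unwound DNA, the flap nuclease Fen1 and the ligase Lig1. None reached the unadjusted p in either line, and the medians were 0.03 for Rspo3 deletion (0.32 with median scaling) and 0.15 for Evi/Wls deletion. Fen1 was at 5.51 and 5.37 in Rspo3-WT, 5.76, 5.54 and 5.50 in Rspo3-iECKO, 5.54, 5.32 and 5.0 in Evi-WT, and 5.80 and 5.60 in Evi-iECKO. Both Evi-iECKO arrays were above the Evi-WT arrays for Fen1, and the Rspo3 groups overlapped by 0.01. Its mean difference was 0.29 (SE 0.14, adjusted p = 0.875).

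The nucleotide supply genes were the sub-complex whose 5 genes were all below 0 with Rspo3 deletion, read from their brightest probes. Their median was -0.20. With median scaling 3 of the 5 were above 0, and the median was 0.05, beside 0.11 over all genes. The 5 are Rrm1 and Rrm2, the subunits of ribonucleotide reductase, Tyms, which makes thymidylate, Tk1, which salvages thymidine, and Dut, which removes dUTP. Other probes past the filter went both ways with Rspo3 deletion. Rrm2 had 0.13 (SE 0.35), and Rrm1 had 0.05 (SE 0.37) and -0.25 (SE 0.27). Tyms had 0.11 (SE 0.21), 0.05 (SE 0.18), -0.16 (SE 0.26) and -0.33 (SE 0.20). With Evi/Wls deletion 3 of the 5 were above 0, with a median of 0.32. Dut was at 5.50 and 4.98 in Rspo3-WT, 4.96, 4.83 and 4.58 in Rspo3-iECKO, 5.43, 5.44 and 5.24 in Evi-WT, and 5.20 and 5.19 in Evi-iECKO. All deleted arrays of Dut were below the controls of their line, although the nearest arrays were 0.02 apart for Rspo3 deletion and 0.04 apart for Evi/Wls deletion. The difference was -0.44 (SE 0.20, adjusted p = 1) with Rspo3 deletion, -0.18 (SE 0.20, adjusted p = 0.89) with Evi/Wls deletion, and -0.31 (SE 0.14, adjusted p = 0.853) in the mean. Without Rspo3-WT 1, the Rspo3 difference of Dut was -0.18.

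Tk1 had the widest spread of the list, 2.08 on the log2 scale between its lowest and highest array. It was at 7.08 and 6.82 in Rspo3-WT, 7.09, 6.33 and 6.49 in Rspo3-iECKO, 7.02, 5.01 and 5.89 in Evi-WT, and 6.33 and 6.26 in Evi-iECKO. The 3 Evi-WT arrays enclosed both Evi-iECKO arrays. Rrm2 was at 8.20, 7.17 and 6.82 in Evi-WT, with the Evi-iECKO arrays between them at 7.68 and 7.78, so Evi-WT 1 was high and the other Evi-WT arrays low for both genes.

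Chromatin assembly and inheritance had 3 measured genes: Chaf1a and Chaf1b, subunits of the CAF-1 complex that deposits new histones behind the fork, and Uhrf1, which recruits maintenance DNA methylation. Chaf1b was at 5.55 and 5.77 in Rspo3-WT, 5.93, 6.57 and 6.45 in Rspo3-iECKO, 6.24, 5.64 and 6.17 in Evi-WT, and 6.62 and 6.80 in Evi-iECKO. Every deleted array was above every control array of its line. The difference was 0.66 (SE 0.24, adjusted p = 1) with Rspo3 deletion and 0.69 (SE 0.24, adjusted p = 0.486) with Evi/Wls deletion. In the mean, Chaf1b was 1.6-fold higher (log2 0.67, SE 0.17, adjusted p = 0.503), which ranked 51 of 16144 genes by p. Only 1 Chaf1b probe was on the array, so no other probe checks it.

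Chaf1a, the partner of Chaf1b in CAF-1, had a mean difference of 0.25 (SE 0.17, adjusted p = 0.909), and its groups overlapped in both lines. Uhrf1 was at 7.87 and 7.45 in Rspo3-WT, 7.22, 7.81 and 7.50 in Rspo3-iECKO, 7.82, 7.31 and 6.88 in Evi-WT, and 8.04 and 7.83 in Evi-iECKO. The Evi-iECKO arrays were above all Evi-WT arrays, the nearest by 0.01, and the difference was 0.60 (SE 0.27, adjusted p = 0.607) in the Evi line against -0.15 (SE 0.27, adjusted p = 1) in the Rspo3 line. Without Evi-WT 3 the Evi difference of Uhrf1 was 0.37.

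G1/S control and checkpoint had 3 measured genes: Ccne2, a cyclin E that drives S-phase entry with CDK2, E2f1, an E2F activator, and Chek1, the kinase of the replication checkpoint. Ccne2 was at 5.57 and 4.96 in Rspo3-WT, 4.80, 4.87 and 5.08 in Rspo3-iECKO, 4.89, 4.67 and 4.42 in Evi-WT, and 5.30 and 5.43 in Evi-iECKO. Both Evi-iECKO arrays were above all Evi-WT arrays, and the Rspo3 groups overlapped. The difference was 0.71 (SE 0.22, adjusted p = 0.469) in the Evi line and -0.35 (SE 0.22, adjusted p = 1) in the Rspo3 line. Only 1 of the 3 Evi-WT arrays detected the Ccne2 probe.

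Chek1 was not well above background on any control array of either line, at 4.29 and 4.28 in Rspo3-WT and 4.26, 4.31 and 4.15 in Evi-WT. It was detected on all 3 Rspo3-iECKO arrays, at 4.85, 4.94 and 5.21, and on 1 Evi-iECKO array, at 5.69, with the other at 4.24. Against the lowest detected signal, Chek1 was at least 1.62-fold higher in Rspo3-iECKO. The 1.57-fold value for Evi-iECKO averages in the array without detection, at 4.24, and is no bound. Neither value supports a direction, because Chek1 passed the filter only through deleted arrays. The fitted mean difference was 0.72 (SE 0.22, adjusted p = 0.66). Leaving out Evi-iECKO 2 gave a fitted mean of 1.08 with an adjusted p of 0.0275, and leaving out Evi-iECKO 1 gave -0.00 for the Evi line, so the value in that line rested on 1 array. Another Chek1 probe, also detected on 4 arrays, gave 0.26 (SE 0.19) with Rspo3 deletion and 0.01 (SE 0.19) with Evi/Wls deletion.

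E2f1 was at 6.78 and 5.88 in Rspo3-WT, 6.57, 6.51 and 6.69 in Rspo3-iECKO, 6.49, 6.07 and 5.16 in Evi-WT, and 7.11 and 6.10 in Evi-iECKO. Its groups overlapped in both lines, and the mean difference was 0.48 (SE 0.27, adjusted p = 0.885).

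**Figure D2:**
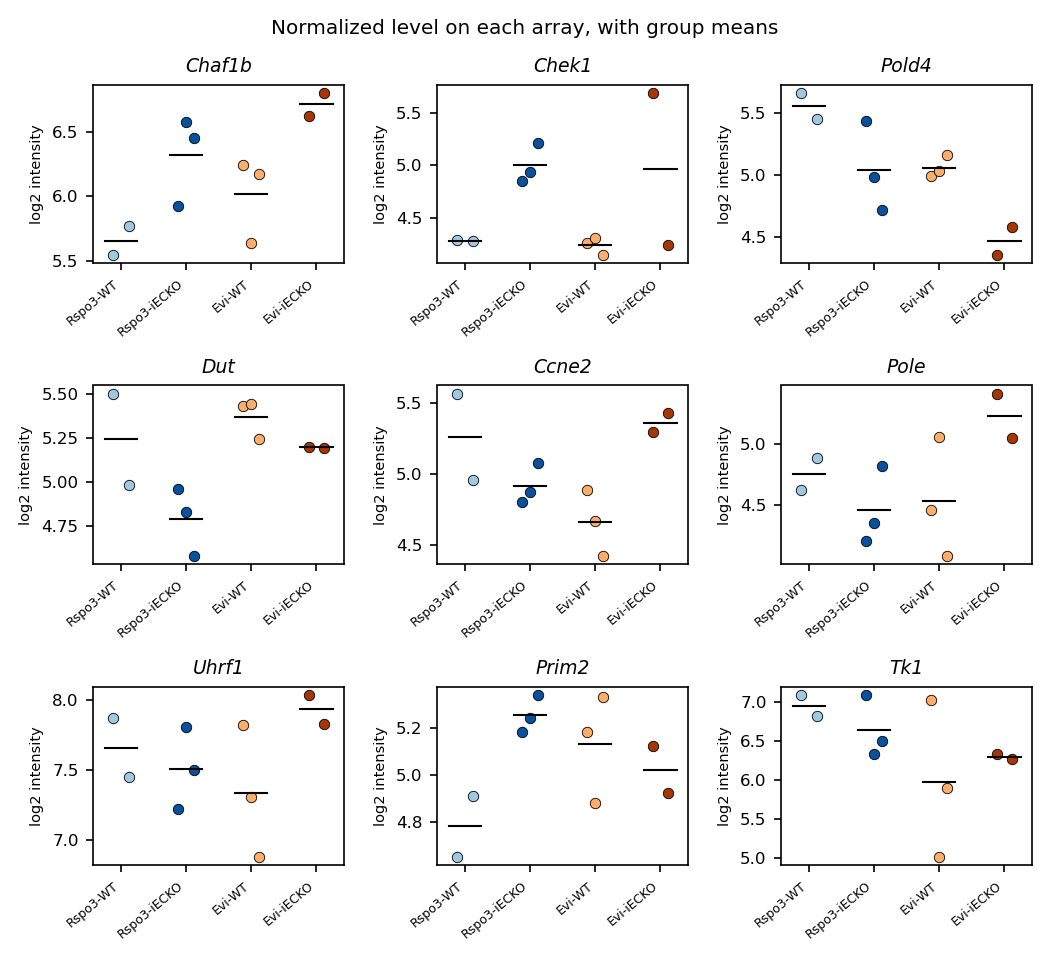
Normalized log2 intensity (y axes, each panel with its own range) of 9 genes on each array, by group, with a bar at the group mean. The deleted arrays lie above their controls for Chaf1b and below them for Pold4 and Dut in both lines, and 1 of the 2 Evi-iECKO arrays of Chek1 lies with the controls.

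The difference between the 2 deletions was tested directly as an interaction. At the unadjusted p, 3 of 42 genes (7.14%) differed, against 6.06% of all genes (3.41% higher and 2.66% lower), and none had an adjusted p below 0.05. Ccne2 had an Evi/Wls effect greater than its Rspo3 effect by 1.05 (SE 0.31, adjusted p = 0.733), and Pole by 0.99 (SE 0.39, adjusted p = 0.789). Prim2 had the opposite order, -0.58 (SE 0.27, adjusted p = 0.82), and reached the unadjusted p in 5 of 21 alternatives. The count was 6 without Evi-WT 1, without Evi-iECKO 1 or without Evi-iECKO 2. Of the 42 differences, 29 were above 0 (69%, against 52.2% of all genes), with a median of 0.15, but the median was -0.07 with median scaling, where the median of all genes was -0.13. It was 0.03 without Evi-iECKO 1, 0.06 without Evi-WT 3, 0.07 without Rspo3-WT 1, 0.09 without Evi-WT 2, 0.26 without Evi-iECKO 2 and 0.28 without Evi-WT 1. Over the 40 genes, 2 were higher and 0 lower at the unadjusted p (5%, against 5.99% of the genes so filtered), so Prim2 no longer reached it. Of the 40 differences, 27 were above 0, with a median of 0.21.

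The control arms, Evi-WT against Rspo3-WT, differ by line and share no treatment contrast, and each also serves as the control of a deletion, so these values are not independent of those above. Here 33 of 42 genes were lower in Evi-WT, with 21.4% above 0 against 52.4% of all genes, and the median was -0.18. Ccne2, Tyms, Pold4 and Tk1 were lower at the unadjusted p and none was higher, 4 of 42 (9.52%) against 8.81% of all genes (4.53% lower and 4.27% higher). The groups did not overlap for 9 genes that were lower in Evi-WT (21.4%, against 11.9% of all genes) and for 0 that were higher (against 13.5%). The 9, with the gap between their nearest arrays, were Mcm2 (0.01), Mcm3 (0.42), Mcm7 (0.07), Pola1 (0.04), Pola2 (0.01), Pold2 (0.05), Pold4 (0.29), Tyms (0.31) and Ccne2 (0.07). Pola1 was detected on only 2 of the 10 arrays, so its values lie near background. No count was limited to genes detected in both control groups. Markers of several cell types were also at lower values in Evi-WT: 8 of 10 endothelial markers (2 at the unadjusted p, median -0.17), 7 of 7 measured pericyte and smooth muscle markers (median -0.27), 7 of 8 alveolar type 2 markers (median -0.42) and 5 of 7 measured fibroblast markers (2 at the unadjusted p, median -0.23). Leukocyte markers (4 of 6 measured) and erythroid markers (5 of 6 measured) were at higher values. Fewer probes were detected in Evi-WT (47.5%, 47% and 48.6%) than in Rspo3-WT (51.1% and 49.8%). The part of these markers and of detection in the replication values was not tested.

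Tyms was at 6.05 and 5.98 in Rspo3-WT and 5.47, 5.22 and 5.67 in Evi-WT, a difference of -0.56 (SE 0.23, adjusted p = 0.498). The Tyms groups were 0.31 apart at their nearest arrays. For Ccne2 the difference was -0.60 (SE 0.22, adjusted p = 0.433), for Pold4 -0.49 (SE 0.21, adjusted p = 0.532), and for Tk1 -0.97 (SE 0.43, adjusted p = 0.546). Tk1 overlapped through Evi-WT 1. Over all genes 6 passed the adjusted threshold (0.0372%), and none of them was on the list. That count was 0 or 1 without any single array of Rspo3-WT or Rspo3-iECKO and was 0 without Evi-WT 2 or Evi-WT 3. The median was -0.03 without Evi-WT 3, -0.11 without Rspo3-WT 1, -0.34 without Evi-WT 1 and -0.35 without Rspo3-WT 2. The count of 4 became 0 without Rspo3-WT 1, 2 without Rspo3-WT 2 and 9 without Evi-WT 1, and with median scaling 10 genes were lower and 0 higher, beside a median of all genes that went from 0.02 to -0.09.

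Single arrays carried much of this pattern. The mean deviation of the 42 genes from their 10-array means was 0.12 and -0.05 in Rspo3-WT, 0.04, 0.09 and 0.07 in Rspo3-iECKO, 0.13, -0.19 and -0.36 in Evi-WT, and 0.15 and -0.00 in Evi-iECKO. Evi-WT held both the second highest and the lowest array, and deleted and control arrays overlapped in both lines. Evi-WT 3 was the lowest of the 10 arrays for 19 of 42 genes (45.2%, against 10.8% of all genes), and Evi-WT 2 for 7 (16.7%, against 9.76%). Evi-iECKO 1 was the highest array for 15 genes (35.7%, against 16.6%) and Rspo3-WT 1 for 8 (19%, against 8.68%). Over the 10 arrays, 22 of 42 genes had a range above 1 on the log2 scale (52.4%, against 28.8% of all genes), with a median range of 1.02. Within Evi-WT 3, the mean deviation was -0.52 for the MCM genes, -0.74 for G1/S control and -0.24 for chromatin assembly.

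**Figure D3:**
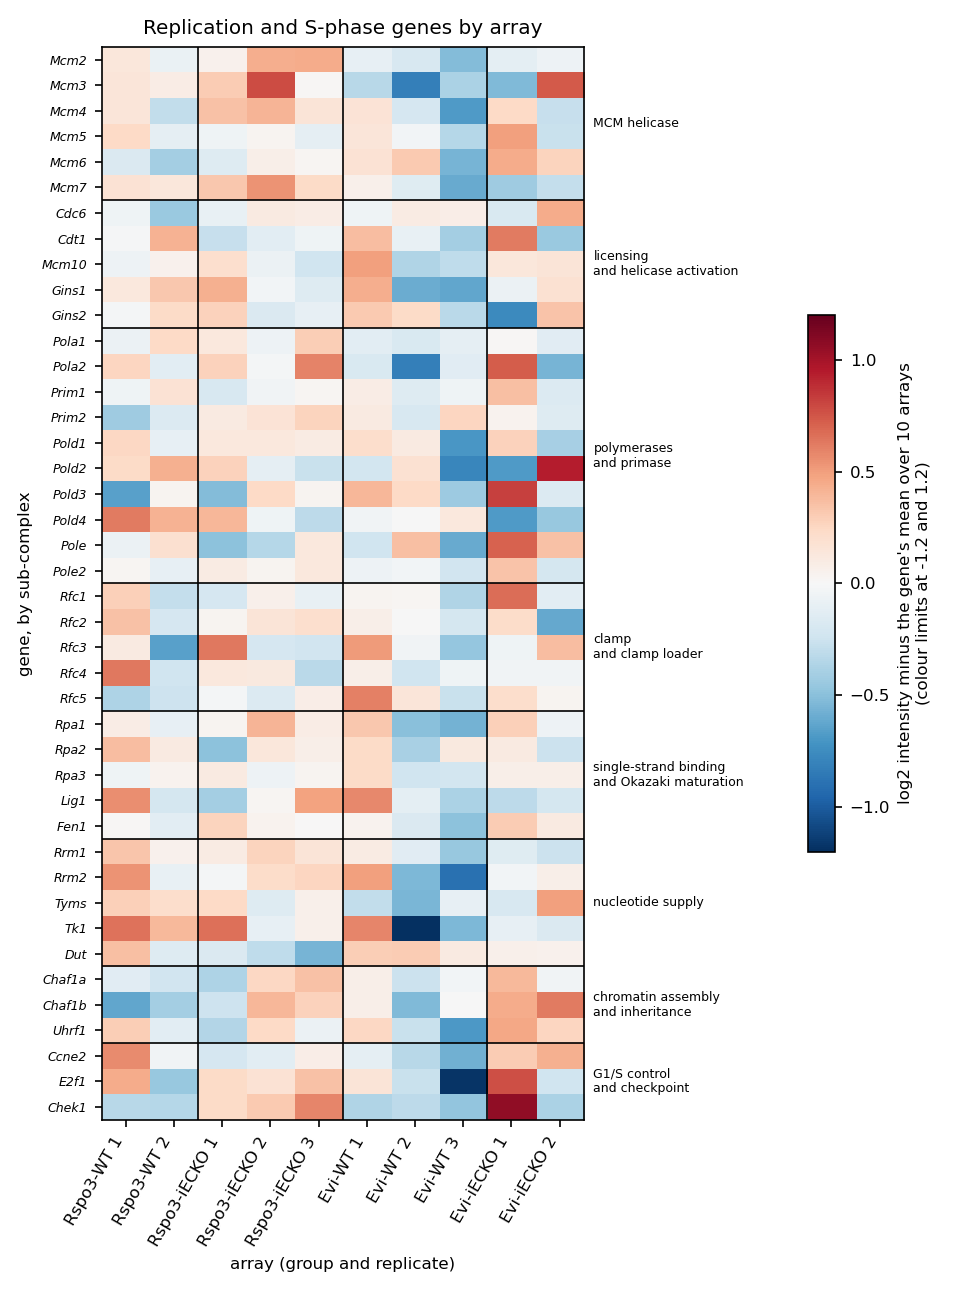
Log2 intensity of each of the 42 genes (rows, by sub-complex) on each of the 10 arrays (columns, by group), minus the gene's mean over the 10 arrays, in colour. Evi-WT 3 is the lowest array for 19 genes, seen as a mostly blue column, and Evi-iECKO 1 is the highest for 15.

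The array scores of 26 mitosis genes were 0.17 and -0.16 in Rspo3-WT, 0.06, 0.03 and 0.13 in Rspo3-iECKO, 0.19, -0.25 and -0.14 in Evi-WT, and 0.20 and -0.22 in Evi-iECKO. In both lists Evi-WT 1 and Evi-iECKO 1 were high and Evi-WT 2 and Evi-WT 3 low, whereas Evi-iECKO 2 was low for mitosis genes and at the 10-array mean for replication genes. No mitosis gene reached the unadjusted p in either deletion or in the mean, and their median differences were 0.08, 0.04 and 0.04. Sex, read from Xist, was mixed within each group, with 1 array of high Xist (8.40 to 8.85) in each. Alveolar type 2 markers, the epithelial cells that make surfactant, ranged as a mean of 8 genes from 4.73 to 7.60 between the Evi-iECKO arrays and from 4.90 to 5.71 in Evi-WT, and all 8 had a difference above 0 with Evi/Wls deletion (2 at the unadjusted p, median 0.75). Fibroblast markers lay between 4.55 and 4.61 in Evi-WT and between 4.69 and 4.92 in Evi-iECKO, and all 7 measured were above 0 (1 at the unadjusted p, median 0.19). Erythroid markers ranged from 6.52 to 7.02 in Evi-WT and from 6.10 to 6.66 in Evi-iECKO, with 4 of 6 measured below 0 (2 at the unadjusted p, median -0.58). The part of these differences between arrays in the replication values was not tested.

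**Figure D4:**
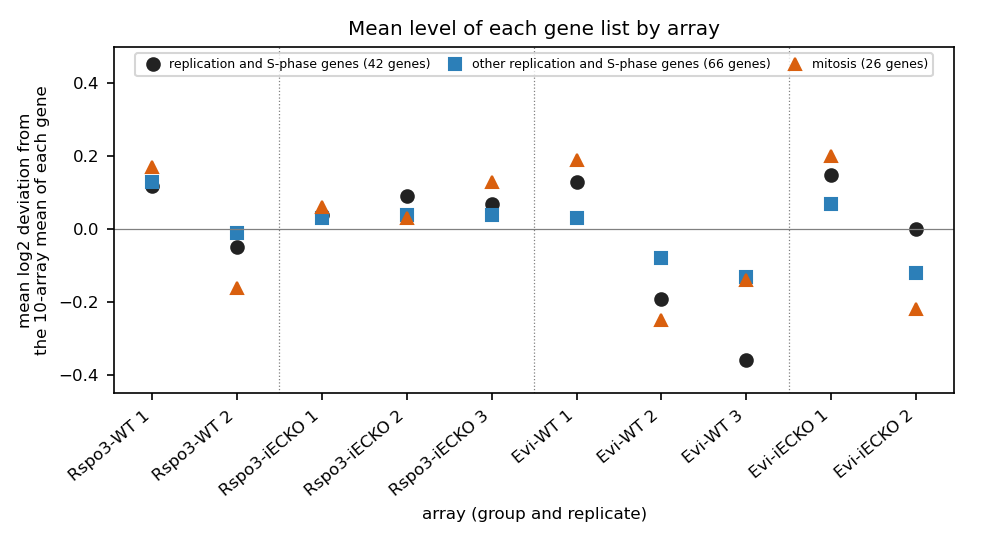
Mean log2 deviation of 3 gene lists from each gene's mean over the 10 arrays (y axis), on each array (x axis). For the 42 replication and S-phase genes the lowest array is Evi-WT 3, at -0.36, and the highest is Evi-iECKO 1, at 0.15.

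A further list of 75 replication and S-phase genes, from origin recognition to cyclin-dependent kinase inhibitors, had 66 measured. Their medians were -0.01, 0.00 and -0.02 in the Rspo3 line, the Evi line and the mean. At the unadjusted p, 2 were higher and 2 lower with Rspo3 deletion (6.06%, against 4.35% of all genes), 3 higher and 1 lower with Evi/Wls deletion (6.06%, against 7.99%), and 3 of each in the mean (9.09%, against 5.82%). None had an adjusted p below 0.05 in these comparisons.

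The 3 that were higher in the mean were Cdkn1a, Rnaseh2a and Samhd1. Cdkn1a, the p21 inhibitor of cyclin-dependent kinases, was at 6.89 and 7.16 in Rspo3-WT, 7.57, 7.59 and 7.42 in Rspo3-iECKO, 7.46, 7.19 and 6.78 in Evi-WT, and 8.27 and 7.87 in Evi-iECKO. Every deleted array was above every control array of its line, and the mean difference was 0.71 (SE 0.16, adjusted p = 0.365). Rnaseh2a, the catalytic subunit of RNase H2, had a mean difference of 0.43 (SE 0.18, adjusted p = 0.837) and Samhd1, which degrades deoxynucleotides, 0.35 (SE 0.16, adjusted p = 0.837). The 3 that were lower were Rbbp7, a histone chaperone subunit (-0.41, SE 0.15, adjusted p = 0.784), Orc2 of the origin recognition complex (-0.44, SE 0.17, adjusted p = 0.801), and Wdhd1, which couples helicase and polymerase alpha (-0.42, SE 0.19, adjusted p = 0.837).

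Probes of the same gene often differed. Of the 42 genes, 18 had several probes past the filter, and all probes of a gene shared a sign in 7 of the 18 with Rspo3 deletion (38.9%, against 45% of all 5321 such genes) and in 9 with Evi/Wls deletion (50%, against 44.6%). For Mcm4 the brightest probe gave 0.22 (SE 0.26) in the Evi line and the other probes gave -0.73 (SE 0.21) and -0.60 (SE 0.29). For Lig1 the brightest gave -0.29 (SE 0.32) in the Evi line and another probe 0.68 (SE 0.25). For Gins2 the brightest gave -0.11 (SE 0.30) in the Rspo3 line and the other 0.56 (SE 0.21). The sign of the helicase subunit Mcm4 in the Evi line therefore depends on the probe read.

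**Figure D5:**
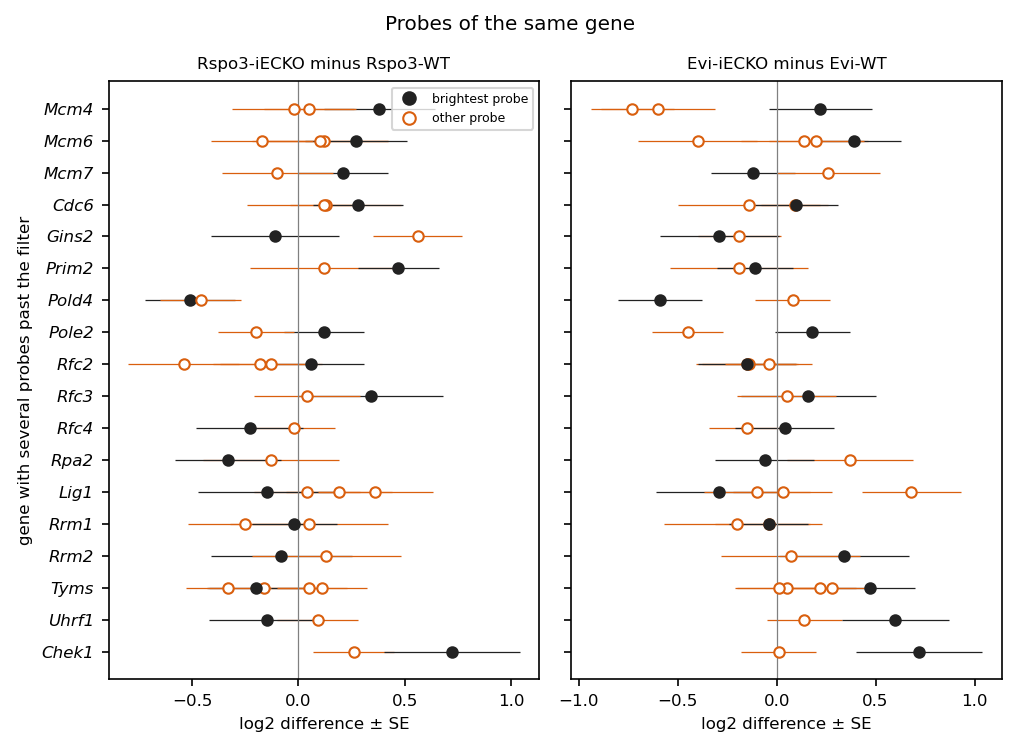
Log2 difference with SE (x axes) of every probe past the filter for the 18 genes with several probes (y axis), in the Rspo3 line (left) and the Evi line (right). Filled points are the brightest probe, which represents the gene, and open points are the others, as for Mcm4, whose 3 probes lie on both sides of 0 in the Evi line.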

How the data were processed

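RNA of sorted lung endothelial cells was measured on 10 arrays. The labels' protocols name the PicoPure kit for isolation, followed by NuGEN single primer isothermal amplification and biotin labelling. The authors deposited 1 table of raw bead intensity with its detection p-value for each probe and array, and 1 of intensity they had normalized, kept linear, per the file headers. The sources used here do not say how the p-values, the normalization or the bead summaries were made.

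The raw intensities went through neqc of limma 3.58.1 in R 4.3.3 (normexp background correction, offset 16, quantile normalization, log2). The filter asked for a detection p below 0.05 on 2 or more arrays and passed 30017 of 46237 probes, of which 24246 had a gene symbol. Symbols came from the platform annotation, updated against RefSeq (28620 probes through Entrez identifiers, 2637 through accessions, 4527 kept as given, 937 changed); of all probes 35784 had 1 symbol, 0 several and 10453 none. The brightest probe stood for each of 16144 genes. Levels of different probes were not compared. A probe detected on no array of a group has only a bound there, set against the lowest detected signal of each array.

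limma fitted the means of the 4 groups on all 10 arrays, with Benjamini-Hochberg adjustment over all genes; the script was tested on simulated data. Contrasts were Rspo3 deletion, Evi/Wls deletion, the mean of both, the difference of both, and the control arms. Precision is limited by the number of arrays. No 2 arrays held identical values. Figures used Python 3.11.15 and matplotlib 3.10.9.

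The genes and the further lists were chosen with earlier results of these data known. Genes given in full were, per comparison, those with an unadjusted p below 0.05 (at most 6) or otherwise the 3 of smallest p, the gene of smallest p in the mean for each sub-complex, and from the further list of 75 those with an unadjusted p below 0.05 in the mean. Other genes are named as examples after their values were seen. Alternatives changed the background correction, scaling, detection filter, probe choice, array weights, variance prior, replicate block, sex term and arrays in the fit, used the authors' normalized values, or left out 1 array.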

Additional observations from a re-analysis of the deposited data

How the results depend on the processing

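Each gene described in full was checked under the alternatives only in the comparisons that chose it. Values in other comparisons, such as those of Cdc6 and Rfc3 within a line, were not so checked. Directions in the comparisons checked held in nearly all cases, and 1 value reversed. The Evi/Wls difference of Chek1 was -0.00 without Evi-iECKO replicate 1 and 1.44 without Evi-iECKO replicate 2. The cause was not tested. Where 1 array was left in a group, it was assumed to vary like the other groups. Fold sizes shrank with a larger background offset or the authors' normalized values: the mean difference of Chaf1b ranged from 0.34 to 0.75 and that of Pold4 from -0.55 to -0.15. Quantile normalization sets the arrays to 1 distribution. With median scaling the median of all genes moved by over 0.1 for Rspo3 deletion (to 0.11), the difference (to -0.13) and the control arms (from 0.02 to -0.09), and the share of higher genes among those at the unadjusted p went from 53.9% to 87.4% for Rspo3 deletion, from 56% to 38.3% for Evi/Wls deletion, from 55.3% to 78.9% for the mean, from 56.2% to 14.4% for the difference and from 48.5% to 11.5% for the control arms.

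For Rspo3 deletion, the count of 5 genes was 2 with normexp and an offset of 50, with the authors' normalized values, and with a trended robust variance prior, 3 with detection on at least 5 arrays, and 0 at an unadjusted p below 0.01; the median of 0.04 was 0.25 with median scaling. With 1 array left out, the count ran from 0 to 6 and the median from -0.03 to 0.21. For Evi/Wls deletion, the count of 6 was 2 with median scaling, 3 with only the arrays compared, and 1 below 0.01. With 1 array left out, it ran from 4 to 11, the median of 0.19 from 0.04 to 0.37, and the number of all genes past the adjusted threshold from 0 to 24. For the mean, the count of 4 was 7 with median scaling, 2 with detection on at least 5 arrays, and 2 over genes detected on a control and a deleted array, a filter chosen after seeing the data, and all genes past the adjusted threshold were 6 with the trended robust prior and 1 with sex as a factor; with 1 array left out they ran from 0 to 6, the count from 3 to 7 and the median of 0.13 from 0.08 to 0.19. For the difference, the median was -0.07 with median scaling and the count of 3 was 1 below 0.01; with 1 array left out the count ran from 2 to 6, the median of 0.15 from 0.03 to 0.28, and all genes past the adjusted threshold from 0 to 6.

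For the control arms, median scaling gave a median of -0.40, a count of 10 and 45 genes past the adjusted threshold. The count of 4 was 7 with the mean of all probes, 2 with the trended robust prior and 0 below 0.01. The 6 genes past the adjusted threshold became 31 with the trended robust prior, 2 with only the arrays compared, and 0 with no filter, with the mean of all probes, with sex as a factor or at an adjusted p below 0.01. With 1 array left out the median of -0.18 ran from -0.35 to -0.03, the count from 0 to 9 and the genes past the threshold from 0 to 9.

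Whether replicate numbers pair the arrays was not settled. Same-numbered arrays of a line had deviations that correlated at -0.02, 0.00, 0.13 and -0.12 across genes. In a group of 2 arrays the deviations mirror each other, so these correlations cannot decide it. With the replicate number as a block, the count of genes was 2 for Rspo3 deletion and 1 for the difference, and 0 genes passed the adjusted threshold in the control arms, while the medians were 0.07 for Rspo3 deletion, 0.15 for Evi/Wls deletion, 0.13 for the mean, 0.08 for the difference and -0.14 for the control arms.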
